A study of Mus musculus with 6 samples.

Results

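Retinal RNA of the mouse was examined for the rod-derived cone viability factor genes Nxnl1 and Nxnl2 and for Bsg and Slc2a1, the genes of the cell-surface complex that binds the Nxnl1 product. Every probe set whose annotation names 1 of these 4 genes was taken, which gave 8 probe sets, of 45037 other than controls and of 18193 named genes in all. Bsg had 1 probe set, Nxnl1 and Nxnl2 had 2 each, and Slc2a1 had 3. A further 2 probe sets have no gene name in the annotation used here and were chosen by their low values in the knockout arrays, so their knockout difference, like that of the deleted gene Nxnl2, is given as a description with no test. Together these are 10 probe sets, numbered within a gene by their wild-type mean, highest first. A level is never set against that of another probe set. By the labels the tissue was retina freed of its pigment epithelium, taken on post-natal day 40 from mice of the strain BALB/c AJ. By the labels one group carried Nxnl2-/- (ko/ko, 3 arrays, KO1 to KO3) and the other was wild type (wt/wt, 3 arrays, WT1 to WT3). The values of KO3 go against both its genotype and its tissue label, so what a mean over all 3 knockout-labelled arrays represents is uncertain. The labels do not say which part of Nxnl2 was removed, how many animals a sample holds, or whether replicates are separate animals. A p-value therefore covers only the spread among these samples, and that spread may be technical.

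Nxnl1 and Nxnl2 encode thioredoxin-like proteins made in photoreceptors. In mouse, a short product of Nxnl1, known as RdCVF, is secreted by rods and sustains cones, while its long product keeps the thioredoxin fold and is linked to redox protection. Nxnl2 encodes the related factor RdCVF2. Basigin, the product of Bsg, is a membrane glycoprotein of the immunoglobulin family, and its retinal isoform is the receptor of RdCVF on cones. There it sits with the glucose transporter made by Slc2a1, and the binding of RdCVF is known to raise glucose entry and glycolysis in cones. Basigin also carries lactate transporters to the membrane of photoreceptors, glia and pigment epithelium, and Slc2a1 is used by photoreceptors, glia, pigment epithelium and vessel walls.

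RefSeq promoter windows of assembly GRCm38.p6 matched 3 of the 4 genes, and those of Nxnl1 and Nxnl2 are shown because both genes are photoreceptor genes. Each window holds 250 bases before and 50 after the annotated start, written in the direction of the gene, at chr8:71566600-71566899 (minus strand) for Nxnl1 and chr13:51170775-51171074 (plus strand) for Nxnl2. Capitals mark TAATC and TAATCC on either strand, the letters read by the photoreceptor homeodomain factors CRX and OTX2, the longer holding the shorter.

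Nxnl1: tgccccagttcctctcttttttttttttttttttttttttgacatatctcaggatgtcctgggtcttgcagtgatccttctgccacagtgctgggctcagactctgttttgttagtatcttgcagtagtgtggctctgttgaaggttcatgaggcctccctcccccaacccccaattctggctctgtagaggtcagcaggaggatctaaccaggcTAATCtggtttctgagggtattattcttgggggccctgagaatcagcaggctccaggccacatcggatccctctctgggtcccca

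Nxnl2: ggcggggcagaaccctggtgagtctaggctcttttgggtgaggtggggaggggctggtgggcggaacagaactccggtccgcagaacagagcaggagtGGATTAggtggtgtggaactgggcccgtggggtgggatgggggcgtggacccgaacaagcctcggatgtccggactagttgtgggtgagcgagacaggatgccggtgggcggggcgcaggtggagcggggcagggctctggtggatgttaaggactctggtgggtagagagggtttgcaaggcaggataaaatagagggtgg

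The Nxnl2 window held TAATCC 1 time, on the opposite strand, first base 152 before the start. TAATCC on either strand stood in 7.06% of 32851 such windows of mouse genes. The Nxnl1 window held TAATC 1 time, first base 35 before the start, as did 22.0% of all windows, and did not hold TAATCC. The Slc2a1 window held neither. These matches are a description of letters and were not tested as binding sites.

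One of the knockout-labelled arrays, KO3, stood apart from the others, and the differences of the 4 genes are given with and without it. Over probe sets it correlated with the others at 0.848 to 0.853, while the other 5 arrays correlated among themselves at 0.994 or more. The first probe set of the deleted gene read 9.21 there. All 9 measured nasal and olfactory markers, among them the olfactory marker protein gene Omp, lay over 1 log2 unit above wild type in it. It is named by its label, as the array labelled KO3. KO1 and KO2 set against wild type are the 5-array comparison, and all arrays are the 6-array comparison. In each of those 5 arrays 14 of 14 measured rod markers were above the highest Bacillus control.

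Nxnl2 was near the level of the control probe sets in KO1 and KO2 and well above it in wild type. The first Nxnl2 probe set read 3.78 and 3.73 in KO1 and KO2, and 9.21 in the array labelled KO3, against 11.38, 11.45 and 11.42 in wild type (log2). The second Nxnl2 probe set read 4.25, 4.11 and 6.83 in the same 3 knockout-labelled arrays, against 8.36, 8.81 and 8.37 in wild type. Both probe sets thus placed the array labelled KO3 between the groups, and KO1 and KO2 did not overlap with wild type. The highest probe set for Bacillus genes, which match no mouse transcript, read 4.29 and 4.41 in KO1 and KO2, 4.13 in the array labelled KO3, and 4.18 to 4.60 in wild type. Both Nxnl2 probe sets lay under that bound in KO1 and KO2. Neither the deleted part nor the position of the probes is known here, and a remaining transcript outside the probes would not be seen.

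Both unnamed probe sets were low, like Nxnl2, in KO1 and KO2. In the array labelled KO3 the first unnamed probe set lay between the groups, as Nxnl2 did, while the second did not. Both lay further below the wild-type mean there than Nxnl2. The first unnamed probe set read 3.35, 3.63 and 5.75 in the knockout-labelled arrays, against 9.95, 9.82 and 9.85 in wild type. The second unnamed probe set read 4.20, 3.52 and 4.08, against 8.28, 8.14 and 8.53 in wild type. The second unnamed probe set was thus under the control bound in all 3 knockout-labelled arrays, also in the one where both Nxnl2 probe sets were above it. In that array the difference from the wild-type mean was -2.21 and -1.69 for the first and second Nxnl2 probe sets, against -4.12 for the first unnamed probe set and -4.24 for the second unnamed probe set. No transcript is given to these 2 probe sets in the annotation used here.

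**Figure D1:**
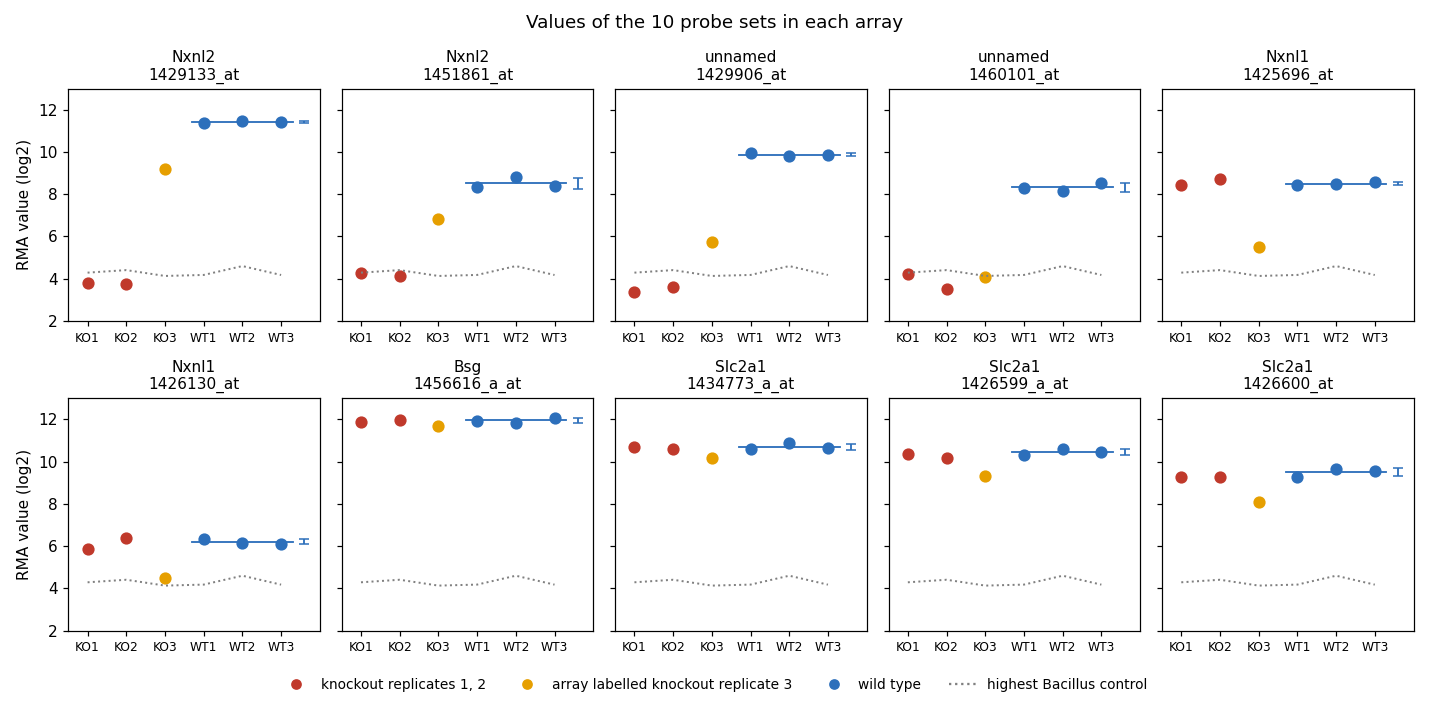
RMA value (log2, vertical axis) of each of the 10 probe sets in every array, the panels of a gene running from its first probe set on, with KO1 and KO2 in red, the array labelled KO3 in orange and wild type in blue; the blue line and bar are the wild-type mean and SD (n = 3), and the dotted line is the highest Bacillus control of each array. Nxnl2 and the unnamed probe sets read 4.25 or less in KO1 and KO2, against 8.14 or more in wild type, while the KO1 and KO2 values of Nxnl1, Bsg and Slc2a1 overlap with wild type.

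In the 5-array comparison the mean log2 differences were -7.67 for the first Nxnl2 probe set, -4.33 for the second Nxnl2 probe set, -6.38 for the first unnamed probe set and -4.45 for the second unnamed probe set. By limma with an adjusted p under 0.05, 5 probe sets were called, which is 0.0111% of those tested. Of these, 4 were the probe sets of Nxnl2 and the unnamed ones, and since the deletion and this contrast fixed their choice, nothing is read from their calls. The other was Erdr1, named after its values were seen, which stood 1.42 higher and is none of the genes described here. In the 6-array comparison the differences were -5.85 and -3.45 for Nxnl2, and -5.63 and -4.38 for the first and second unnamed ones. There limma called 0 probe sets, which is 0% of those tested. Of the 45037 tested, 452 had an unadjusted p under 0.05, and nothing is read from that count. Array quality weights gave 5 calls.

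**Figure D2:**
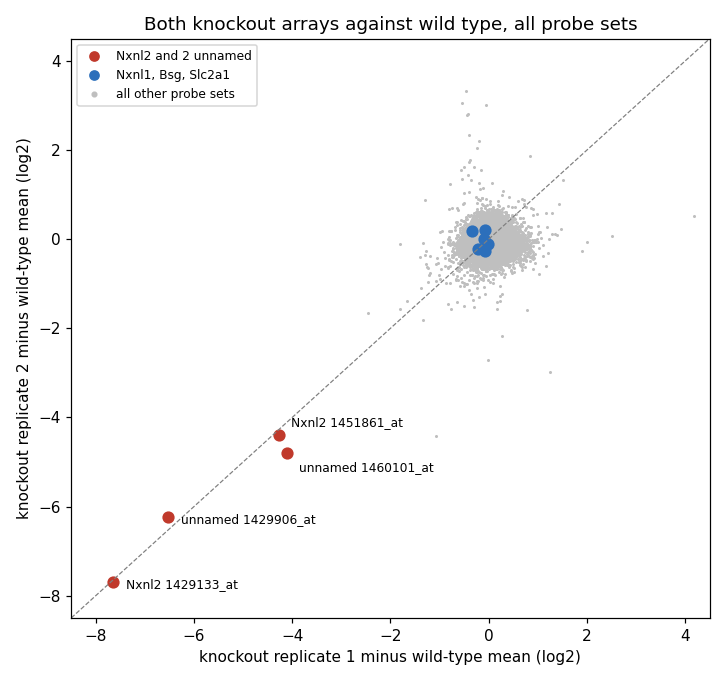
Difference from the wild-type mean (log2) in KO1 (horizontal axis) and KO2 (vertical axis) for every probe set other than controls, with Nxnl2 and the 2 unnamed probe sets in red, Nxnl1, Bsg and Slc2a1 in blue, all others in grey and the line of equal difference dashed. The 4 red points lie near the dashed line between -4.11 and -7.69, where the choice of the unnamed ones places them, and the 6 blue points lie within the main cloud.

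Nxnl1, the paralog that encodes RdCVF, had no detected difference in KO1 and KO2. The first Nxnl1 probe set read 8.44 and 8.70 in KO1 and KO2, and 5.52 in the array labelled KO3, against 8.45, 8.49 and 8.58 in wild type. KO1 was the lowest and KO2 the highest of these 5 arrays, so the groups overlapped. Its 5-array difference was 0.07 (SE 0.11, 95% interval -0.20 to 0.33, limma adjusted p = 1.0). The second Nxnl1 probe set read 5.85 and 6.38 in KO1 and KO2, and 4.48 in the array labelled KO3, against 6.33, 6.15 and 6.12 in wild type. Here too KO1 was lowest and KO2 highest, and the difference was -0.08 (SE 0.16, interval -0.45 to 0.29, adjusted p = 1.0). The estimates of the 2 probe sets had opposite signs.

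Bsg, the gene of the RdCVF receptor, was the most even of the 4 genes across all arrays. Its only probe set read 11.85 and 11.95 in KO1 and KO2, and 11.66 in the array labelled KO3, against 11.94, 11.83 and 12.07 in wild type. KO1 and KO2 both lay inside the wild-type range, and the array labelled KO3 was the lowest of the 6. The 5-array difference was -0.05 (SE 0.11, 95% interval -0.30 to 0.20, limma adjusted p = 1.0), and the 6-array difference was -0.13 (SE 0.12, interval -0.44 to 0.18, adjusted p = 0.80). No source used here says which Bsg isoforms the probe set reads, so the retinal and the general form cannot be told apart.

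Slc2a1, the glucose transporter gene, was slightly lower in KO1 and KO2 on all 3 probe sets, and none passed the test. The first Slc2a1 probe set read 10.68 and 10.61 in KO1 and KO2, and 10.15 in the array labelled KO3, against 10.58, 10.86 and 10.66 in wild type. The second Slc2a1 probe set read 10.38, 10.19 and 9.31 in the same knockout-labelled arrays, against 10.32, 10.58 and 10.44 in wild type. The third Slc2a1 probe set read 9.29, 9.29 and 8.09, against 9.29, 9.64 and 9.57 in wild type. WT2 was the highest array on each probe set, and KO1 and KO2 overlapped with wild type on each. The 5-array differences were -0.06 (SE 0.11) for the first Slc2a1 probe set, -0.16 (SE 0.12) for the second Slc2a1 probe set and -0.21 (SE 0.12) for the third Slc2a1 probe set, each with a limma adjusted p = 1.0. Their 95% intervals ran from -0.32 to 0.21, from -0.44 to 0.11 and from -0.50 to 0.08. Without WT2 the first of these differences turned to 0.02. Lens markers had a median difference from the wild-type mean of -0.93 in KO1 and -0.78 in KO2, against -0.87, 1.79 and -0.92 in WT1, WT2 and WT3. Pigment epithelium markers stood at -0.70 in KO1 and -0.23 in KO2, against -0.13, 0.50 and -0.39 in WT1, WT2 and WT3, and 10 of 10 were below 0 in the 5-array comparison. Vessel markers had a 5-array median of 0.13 with 7 of 8 above 0, where 51.9% of all named genes lay above 0. Several were near background, since 7 and 6 of the 8 were above the control bound in KO1 and KO2. In WT1, WT2 and WT3 the count was 6, 4 and 7. Muller glia markers had a 5-array median of -0.02 with 4 above and 4 below. The medians of rod and cone markers were -0.03 and 0.05. The part of these lists in the Slc2a1 values was not tested.

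Across Nxnl1, Bsg and Slc2a1, 0 of 6 probe sets were called in the 5 arrays and 0 of 6 had groups that did not overlap, where 16.3% of all probe sets had KO1 and KO2 both above or both below every wild-type array. In the 6 arrays the Nxnl1 differences were -0.95 (SE 0.86) and -0.63 (SE 0.49), and the Slc2a1 differences ran from -0.61 to -0.22, each with a limma adjusted p = 0.80. The 5-array values above are those without the array labelled KO3, and there the first Nxnl1 probe set has the opposite sign. A p above the threshold does not show equal expression, and the intervals give the differences that these arrays leave possible.

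**Figure D3:**
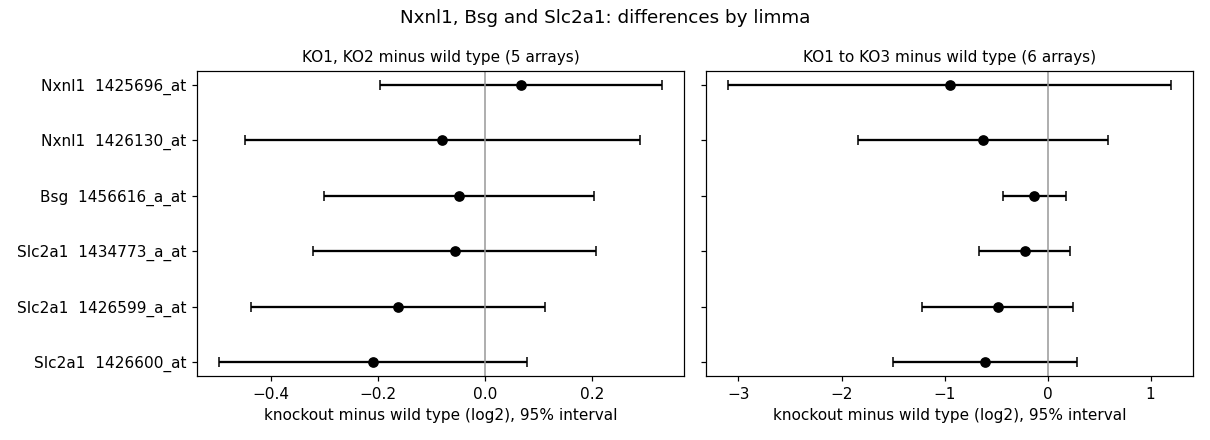
Knockout minus wild type (log2, horizontal axis) for the 6 probe sets of Nxnl1, Bsg and Slc2a1, each gene's first probe set uppermost, with the limma 95% interval as a bar, in the 5-array comparison (left) and the 6-array comparison (right), whose axes have different scales. Every bar spans 0, and those on the right are wider.

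In the array labelled KO3 the 4 genes parted. Nxnl1 lay -2.98 and -1.72 from the wild-type mean (log2), Slc2a1 lay -0.55, -1.13 and -1.41, and Bsg lay -0.29. Of the 6 probe sets of Nxnl1, Bsg and Slc2a1, 4 lay more than 1 log2 unit below the wild-type mean, where 11.1% of all probe sets lay as far below and 12.0% as far above. The exceptions were Bsg and the first Slc2a1 probe set. For Slc2a1 the size of the difference thus depended on the probe set, and 2 of its 3 were past 1 log2 unit.

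Photoreceptor markers were low in the same array. Of 14 measured rod markers, 14 lay more than 1 log2 unit below wild type there, and 6 of 14 were above the control bound. Their summed log2 values were 178.9 and 181.1 in KO1 and KO2, and 61.1 in the array labelled KO3, against 180.7 to 182.0 in wild type. In the 5-array comparison 0 of the 14 rod markers passed the test, with a median difference of -0.03, and the lowest was Prph2 at -0.77 (SE 0.14). Cone markers lay over 1 log2 unit below wild type for 8 of 9 in the array labelled KO3. Nasal and olfactory markers had summed log2 values of 42.7 and 42.1 in KO1 and KO2, and 111.4 in the array labelled KO3, against 40.9 to 43.0 in wild type. In bulk tissue, fewer cells of a type and less RNA per cell cannot be told apart. Whether the tissue makeup accounts for the Nxnl1, Nxnl2 or Slc2a1 values of this array was not tested.

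**Figure D4:**
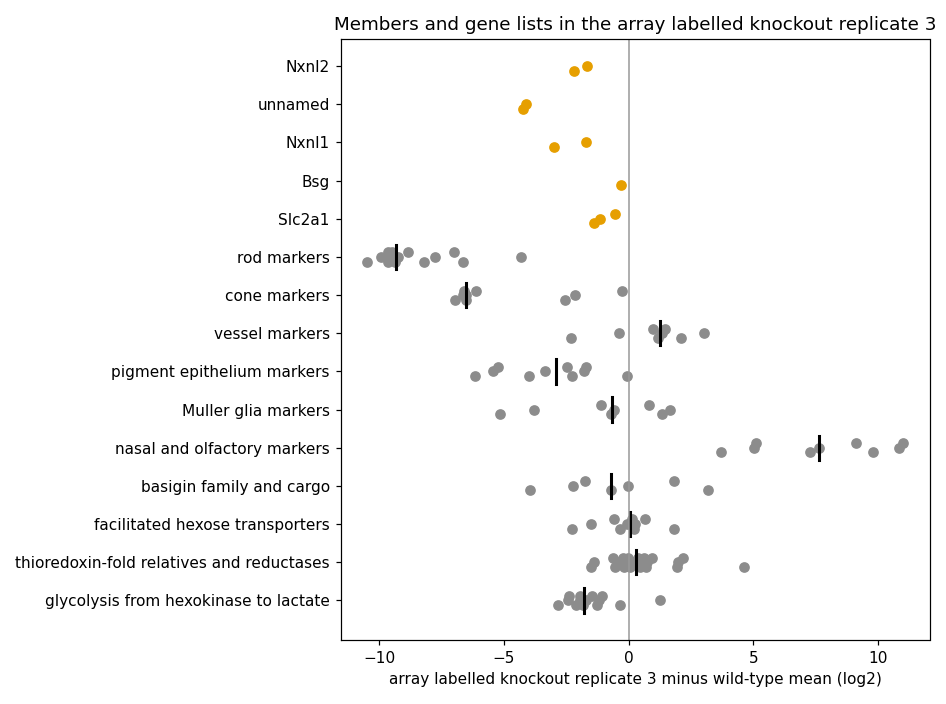
Difference of the array labelled KO3 from the wild-type mean (log2, horizontal axis), 1 point for each probe set of Nxnl2, the 2 unnamed, Nxnl1, Bsg and Slc2a1 (orange) and 1 point for each gene of the marker and pathway lists (grey), with the list median as a black bar. Bsg lies at -0.29, Nxnl1 at -2.98 and -1.72, rod markers have a median of -9.31 and nasal and olfactory markers one of 7.63.

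The genes whose profile over the 6 arrays was most like each member gene were found by the root mean square difference between profiles. Each profile was taken from its own wild-type mean, with the array labelled KO3 included. Only the first probe set of each member gene was used, and its other probe sets may have other neighbours. For Nxnl1, 19 named probe sets lay within 0.1 (log2). The nearest were Prkca, the protein kinase C gene that marks rod bipolar cells, at 0.04, and Dmd and Ntm, the dystrophin and neurotrimin genes, at 0.06 each. All 3 lay between -3.06 and -2.89 in the array labelled KO3 and within 0.19 of wild type in KO1 and KO2. The members themselves were left out of this search. For Nxnl2 no named probe set outside the members came near. The nearest were Armc9 at 3.58, the lens aquaporin gene Mip at 3.74 and Exoc3l4 at 3.85. Among the members, the first unnamed probe set lay at 1.08 from the first Nxnl2 probe set. The second Nxnl2 probe set lay at 1.94 from it and the second unnamed probe set at 2.04. The unnamed probe sets were chosen by their low values in KO1 and KO2, which enter these distances. Nothing about a shared transcript is therefore read from their nearness to Nxnl2. For Bsg the nearest were Otub1 at 0.01, Clps at 0.02 and Prkar2a at 0.02, among 1958 named probe sets within 0.1. For Slc2a1 they were Itsn2, Afg3l2 and Hnrnpdl, at 0.03 each, among 483 within 0.1.

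Among the partners and relatives of basigin no gene passed the test in KO1 and KO2. Of 8 listed genes 7 were measured, and 0 passed in either direction, with a median log2 difference of -0.08 against 0.00 over all named genes. The lactate exporter gene Slc16a3 read 6.24 and 6.28 in KO1 and KO2, against 6.47, 6.51 and 7.28 in wild type, so its groups did not overlap, as was the case for 16.3% of all probe sets. Its difference was -0.50 (SE 0.23, limma adjusted p = 1.0). Slc16a8, the lactate transporter of pigment epithelium, stood at -0.28 (SE 0.20), where pigment epithelium markers had a median of -0.42 with 10 of 10 below 0, and their part in it was not tested. Slc16a1, a lactate transporter that basigin carries, stood at -0.11 (SE 0.10). Its groups did not overlap either, with KO2 at 11.708 just under WT2 at 11.710. Emb, the basigin relative embigin, stood at 0.18 (SE 0.13).

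Among the other listed genes of the Slc2a transporter family no gene passed either. All 10 listed were measured, 0 passed, 5 lay above 0 and 5 below, and the median was 0.02. Slc2a12, an insulin-sensitive hexose transporter gene, stood at -0.34 (SE 0.18), the liver and islet transporter gene Slc2a2 at 0.19 (SE 0.13), Slc2a6 at 0.17 (SE 0.13) and Slc2a10 at 0.10 (SE 0.12). Slc2a2 and Slc2a10 lay under the control bound in KO1, KO2 and all wild-type arrays, so their differences are of background.

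Thioredoxin-fold relatives of Nxnl1 and Nxnl2 were listed together with thioredoxin reductases and Txnip. Of this list 22 of 22 genes were measured and 0 called, with a median of 0.03 and a range of -0.09 to 0.21. The largest was Txndc9, a thioredoxin-domain chaperone partner, which read 9.51 and 9.30 in KO1 and KO2, against 9.30, 9.18 and 9.10 in wild type. Its difference was 0.21 (SE 0.11, limma adjusted p = 1.0). The membrane thioredoxin genes Tmx2 and Tmx4 stood at 0.11 and 0.10, and the mitochondrial glutaredoxin gene Glrx2 at 0.10.

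Glycolysis, the pathway that RdCVF is known to raise in cones, had 14 of 17 listed genes measured, 0 called, 7 above 0 and 7 below, and a median of -0.00. Hexokinase gene Hk2 read 10.99 and 10.50 in KO1 and KO2, against 10.91, 11.35 and 11.12 in wild type, so that KO2 was lowest and the groups overlapped. Its difference was -0.39 (SE 0.17, limma adjusted p = 1.0). Skeletal muscle markers had a median of -0.22 in KO1 and 1.91 in KO2, against -0.16 to 0.17 in wild type, and their part in the Hk2 values was not tested. Phosphofructokinase gene Pfkl stood at -0.21 (SE 0.13), and the lactate dehydrogenase genes Ldhb and Ldha at 0.11 and -0.08. Over the 4 lists, 0 of 53 measured genes passed. With all 6 arrays 0 passed too. The list medians there were -0.21 for basigin partners, 0.01 for hexose transporters, 0.10 for thioredoxin relatives and reductases and -0.58 for glycolysis. Over all named genes the 6-array median was -0.002. The glycolysis median difference from the wild-type mean was 0.02 in KO1, -0.02 in KO2 and -1.78 in the array labelled KO3.

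**Figure D5:**
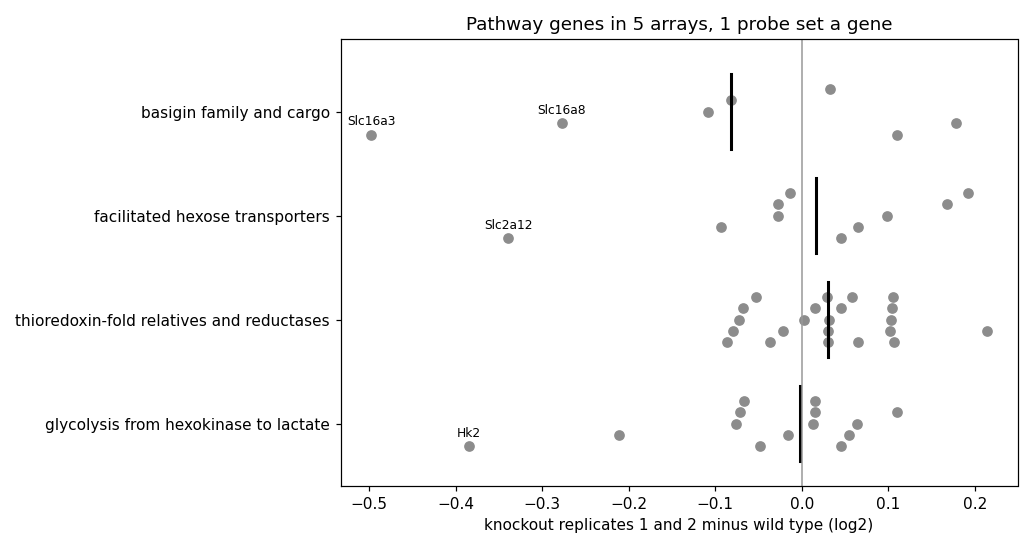
KO1 and KO2 minus wild type (log2, horizontal axis) for each measured gene of the 4 pathway lists, 1 probe set a gene, with the list median as a black bar and genes beyond 0.25 named. Medians lie between -0.08 and 0.03, and no gene passed the test.

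In the array labelled KO3 the basigin partners spread in both directions around an even Bsg. Slc16a1 lay -3.96 and Slc16a3 -2.22 from the wild-type mean, while Emb lay 3.18 above it, and Bsg stood at -0.29. Of 14 glycolysis genes, 12 lay more than 1 log2 unit below wild type, with Hk2 at -2.44, Pfkl at -2.11 and Ldha at -1.85, and of these genes only Ldhb lay as far above, at 1.25. Over all named genes 11.5% lay as far below and 15.8% as far above. Thioredoxin relatives and reductases had 2 of 22 as far below and 4 of 22 as far above. Markers of vessels, whose walls use Slc2a1, had a median of 1.25 with 5 of 8 over 1 log2 unit above and the endothelial receptor gene Kdr at -2.32, and their part in the Slc2a1 values was not tested. These values come from 1 array and carry no test.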

How the data were processed

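Retinal RNA was hybridised to 1-colour Affymetrix arrays. The deposited log2 values were made by the authors with RMA, per the submitters' processing notes, with software and version not given in the sources used here. This method includes a background correction, a normalization across arrays and a summary of the probes of a set. It makes the distributions of the arrays nearly equal and thereby hides a difference in total RNA. All 6 columns were used as deposited. Of 45101 probe sets, 64 controls were left out. Probe sets were named from the platform annotation where it gives 1 gene.

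Over all 45037 probe sets, limma 3.58.1 (lmFit, eBayes; R 4.3.3) tested knockout minus wild type, two-sided, calling a Benjamini-Hochberg adjusted p under 0.05. The function was tested on simulated data. Lists use the probe set with the highest mean of each gene. In each of the 4 pathway lists the 4 genes with the smallest p are named, which was not done for the marker lists. Also named, per member gene, are the 3 probe sets outside the members with the profile nearest to that of its first probe set. Members, lists and the 5-array comparison were chosen with earlier results of these data known. Alternatives were trend and robust options, array weights, renormalization, centring, a filter on dim probe sets (below the 40th percentile), a replicate block, each array left out, and 2 gene-level summaries. Precision is limited by the number of arrays. Figures were drawn with matplotlib 3.10.9.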

Additional observations from a re-analysis of the deposited data

How the results depend on the processing

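No probe set of Nxnl1, Bsg or Slc2a1 passed under any of the 14 alternatives of the 6-array comparison or the 13 of the 5-array comparison, and Nxnl2 kept its sign in all of them. With 6 arrays, 5 probe sets were called with array quality weights and 0 to 5 with an array left out, the 5 being without the array labelled KO3. There the first Nxnl1 probe set turned to 0.10 with array weights, and lay between -1.52 and 0.0667 when arrays were left out in turn. With 5 arrays, the count was 4 to 11 with an array left out (11 without KO1 and 9 without KO2, where the lone knockout array is assumed to vary like wild type), 2 with 1 probe set a gene and 1 with the mean of a gene's probe sets. Signs of small differences turned with an array left out. Bsg ran from -0.107 to 0.0118 and the first Nxnl1 probe set from -0.0661 to 0.200. The second Nxnl1 probe set ran from -0.35 to 0.19 and the first Slc2a1 probe set from -0.117 to 0.0232. The replicate block gave Bsg the same 0.0118 as leaving out WT3, whose number has no knockout array among the 5. These are therefore not separate alternatives. With the mean of its probe sets Nxnl1 stood at -0.0068 and Nxnl2 at -6.00. Deviations of same-numbered arrays correlated at -0.06, -0.03 and -0.10 over 6 arrays, and at -0.07 and 0.15 without the array labelled KO3. These correlations cannot settle whether the numbers pair the samples. Over 6 arrays the array labelled KO3 enters the knockout mean, and without it the deviations of KO1 and KO2 are exact opposites. The samples were not treated as paired, and the replicate block gave 0 calls with 6 arrays and 6 with 5. In the array labelled KO3, 1667 probe sets lay over 2 log2 units below wild type and 2425 as far above. Values near the control bound limit what Nxnl2 and the unnamed probe sets show in knockout arrays.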
